A study of Mus musculus with 6 samples.

Results

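The prostaglandin genes examined here were 10 genes of a family: the cyclo-oxygenases Ptgs1 and Ptgs2, the prostanoid synthases Ptges, Ptgis and Ptgds, the receptors Ptger1, Ptger2, Ptger3 and Ptger4, and the breakdown enzyme Hpgd. They were chosen by name, with no cutoff on their values, when earlier results of these data were already known. All 10 were found among the 55471 genes of the count table, and 6 of them passed the filter on low counts that left 13826 genes for testing. The cells were primary osteoblasts, which build bone, grown from the skull caps of C57BL/6 mice aged 3 days, and their poly(A) RNA was sequenced. There were 3 libraries per genotype. The WT group is labelled wild type, and whether these mice carried floxed alleles or Cre is not given in the sources used here. The TCKO group (triple conditional knockout) carried Prx1-Cre with Tet1fl/fl, Tet2fl/fl and Tet3fl/fl. With Cre, these alleles lose parts of the genes for TET1, TET2 and TET3, the enzymes that begin DNA demethylation by oxidising methylated cytosines. Prx1-Cre is active in limb and skull mesenchyme, so other cell types in such a culture would keep their Tet genes. The sources used here do not say whether each library came from a separate animal or culture, and p-values measure only the spread between libraries, which may be technical.

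Prostaglandins are lipid signals made on demand. A phospholipase frees arachidonate from the membrane, a cyclo-oxygenase turns it into prostaglandin H2, and a terminal synthase turns that into a single active prostaglandin, such as prostaglandin E2 by Ptges or prostacyclin by Ptgis. Prostaglandin E2 acts on the receptors EP1 to EP4 (Ptger1 to Ptger4) and is inactivated inside cells by Hpgd. In bone, osteoblasts make prostaglandin E2 in response to cytokines and mechanical load, and it is known for raising both bone formation and bone resorption.

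The promoter windows of 3 of these genes are shown because they are the listed genes that differed between the genotypes and for which a window was at hand, and because the deleted enzymes act on methylated cytosines at CpG sites. Each window holds the 250 bases before the RefSeq start site (build GRCm38.p6, plus strand, read 5′ to 3′), and capitals mark each CG. The windows are Ptgs1 at chr2:36230176-36230425, Ptgs2 at chr1:150099781-150100030 and Hpgd at chr8:56294302-56294551.
Ptgs1: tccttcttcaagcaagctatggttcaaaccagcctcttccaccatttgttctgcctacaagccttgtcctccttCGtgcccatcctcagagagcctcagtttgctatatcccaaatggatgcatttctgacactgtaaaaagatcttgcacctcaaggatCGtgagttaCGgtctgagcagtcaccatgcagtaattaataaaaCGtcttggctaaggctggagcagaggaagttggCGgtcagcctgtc
Ptgs2: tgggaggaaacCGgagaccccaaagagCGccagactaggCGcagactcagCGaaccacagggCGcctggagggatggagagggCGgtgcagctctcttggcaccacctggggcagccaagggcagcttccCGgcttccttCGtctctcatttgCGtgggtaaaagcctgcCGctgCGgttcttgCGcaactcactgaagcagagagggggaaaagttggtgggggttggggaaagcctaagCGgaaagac
Hpgd: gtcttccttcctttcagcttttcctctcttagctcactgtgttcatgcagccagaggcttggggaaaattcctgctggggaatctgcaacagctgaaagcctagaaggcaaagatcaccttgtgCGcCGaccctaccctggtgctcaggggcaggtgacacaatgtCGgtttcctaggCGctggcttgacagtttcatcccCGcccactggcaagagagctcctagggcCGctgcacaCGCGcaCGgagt
The Ptgs1 window held 5 CG sites, the Hpgd window 9 and the Ptgs2 window 13, beside a median of 6 over 32851 mouse windows of this length. Of all windows, 44.4% held fewer sites than Ptgs1, 59.7% fewer than Hpgd and 68.5% fewer than Ptgs2. Windows were at hand for 8 of the 10 genes. Of 4 motifs searched on both strands, only TGTGGT, the core letters of a RUNX site, occurred in these 3 windows, once, in Ptgs2. It occurs in 14.0% of all windows. The others were TGACG, from the cyclic AMP response element (17.8% of all windows), TATAAA, the TATA box (12.4%), and TGANTCA, the AP-1 site (6.75%). Only these bases before the annotated start were searched, so a motif that lies after the start or farther upstream would be missed. Absence from a window therefore does not show that a promoter lacks the motif. Methylation was not analysed here, and a match of letters is a description of the sequence only.

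The libraries held between 8019999 and 10177214 counts. A count of 0 can hide up to 3 counts, or between 0.299 and 0.373 CPM in these libraries (CPM being counts scaled to the same library size after TMM correction). This floor covers counting error only. The targeted genes were examined first. Tet1 was counted 98, 131 and 115 times in the WT libraries, against 68, 51 and 51 in those labelled TCKO, Tet2 had 132, 213 and 159 against 159, 121 and 161, and Tet3 had 485, 611 and 452 against 795, 622 and 712 (replicates 1, 2 and 3 in this and every later list). Tet1 was lower and Tet3 higher in the libraries labelled TCKO (adjusted p = 0.00648 and 0.00745). The counts cover all exons of each gene and do not separate the deleted ones. Replicate 3 of each genotype stood apart from replicates 1 and 2. Mitochondrial genes took 2.22% and 2.47% of its counts against 1.11% to 1.24% in the other libraries. TCKO replicate 3 also held 4583 counts of Xist and 0 of the Y-linked Ddx3y, where the other 5 libraries held 1 to 4 and 675 to 1094. The part of these differences between libraries in the later results was not tested. The osteoblast genes Runx2, Sp7, Col1a1 and Col1a2 were detected in every library, while Bglap, an osteocalcin gene, had at most 2 counts in any. How reads shared between genes were counted is not given in the sources used here. The summed level of 7 osteoblast markers was 30191 to 32552 CPM in WT, against 14264 to 22409 CPM in the libraries labelled TCKO. Nearly all of that sum was Col1a1 and Col1a2. Of the 6 tested markers, 3 were lower and 0 higher at an adjusted p under 0.05, beside 8.63% and 9.07% of all tested genes. Runx2, Alpl and Col1a1 had log2 fold changes of -0.45, -3.54 and -0.61 (adjusted p = 0.00397, 0.00743 and 0.038). Sp7, Col1a2 and Ibsp had an adjusted p of 0.0877, 0.0676 and 0.62. In bulk RNA, fewer cells of a type and less RNA per cell cannot be told apart.

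Of the 6 tested genes, Ptgs1 and Ptgs2 were higher in the libraries labelled TCKO than in WT, Ptgis and Hpgd were lower, and Ptges and Ptger4 did not pass the test. A gene passed when its adjusted p was under 0.05 (edgeR quasi-likelihood test, Benjamini-Hochberg adjustment over all 13826 tested genes), and every adjusted p comes from this test unless another is named. Over all tested genes, 17.7% passed in either direction, 9.07% as higher and 8.63% as lower, and 6.35% passed with a change over 2-fold. All 4 of the genes that passed changed by over 2-fold. The same 4 showed no overlap between the genotypes in CPM, as did 38.3% of all tested genes. The median log2 fold change of the 6 was 0.20, beside 0.000 over all tested genes.

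**Figure D1:**
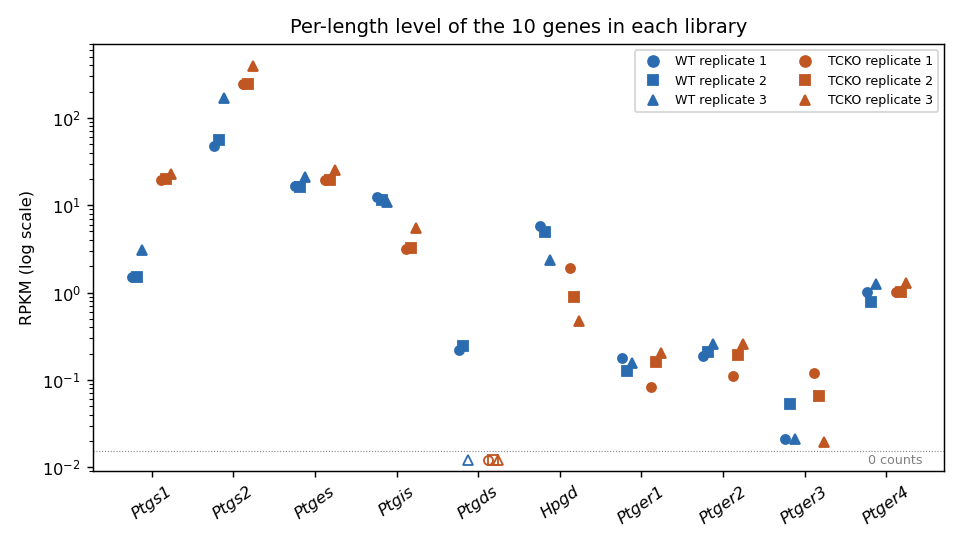
The per-length level (RPKM, log axis) of the 10 listed genes is plotted for each library, with WT in blue, libraries labelled TCKO in orange and marker shape giving the replicate. Ptgs2 had the highest level in all 6 libraries, and Ptgs1 moved from between 1.49 and 3.03 RPKM in WT to between 19.2 and 22.8 RPKM in the libraries labelled TCKO. Open markers below the dotted line stand for 0 counts.

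Levels can be set against each other only per length, as RPKM (CPM per kilobase of exon). The length is the exon length given with the counts, so the order and the per-length shares depend on the annotation. For Ptges, the annotated span starts 26566 bases from the RefSeq start. In WT, Ptgs2 was the most abundant of the 10 at 91.0 ± 67.9 RPKM (SD, n = 3), followed by Ptges at 17.9 ± 2.61, Ptgis at 11.6 ± 0.784, Hpgd at 4.35 ± 1.76, Ptgs1 at 2.00 ± 0.886 and Ptger4 at 1.02 ± 0.239 RPKM. The remaining 4 genes lay at or under 0.257 RPKM in every WT library. Of the neighbours in this order down to Ptger4, only Hpgd and Ptgs1 overlapped in range. In the libraries labelled TCKO, Ptgs2 again led at 290.3 ± 84.2 RPKM, and Ptges at 21.5 ± 3.45 and Ptgs1 at 20.7 ± 1.90 RPKM came next with overlapping ranges. Ptgis followed at 3.97 ± 1.33, then Ptger4 at 1.10 ± 0.156 and Hpgd at 1.08 ± 0.736 RPKM, which also overlapped. Ptgs1 thus ranked below Ptges, Ptgis and Hpgd by mean in WT and level with Ptges in the libraries labelled TCKO.

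Ptgs1 and Ptgs2 encode COX-1 and COX-2, the enzymes that commit arachidonate to prostaglandins. COX-1 is usually described as the constitutive form and COX-2 as the form that stimuli induce. Ptgs1 (ENSMUSG00000047250, chromosome 2, 36230426 to 36252272, plus strand, GRCm38) was counted 48, 58 and 97 times in the WT libraries, against 654, 627 and 791 in those labelled TCKO. In CPM these were 5.81, 5.79 and 11.8 against 74.7, 77.9 and 88.7. WT replicate 3 was the highest of its group, and the groups were far apart. The mean rose from 7.79 ± 3.44 to 80.4 ± 7.36 CPM (SD, n = 3), a 10.4-fold difference, and the log2 fold change was 3.38 ± 0.24 (SE, adjusted p = 0.000174). The call held in 17 of 17 alternative analyses, with a log2 fold change between 3.19 and 3.79 and a highest adjusted p of 0.0163. The fold was 13.2 within replicates 1 and 2 and 7.55 within replicate 3. Without TCKO replicate 3, the library with Xist, the log2 fold change was 3.31.

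Ptgs2 (ENSMUSG00000032487, chromosome 1, 150100031 to 150108227, plus strand) was counted 1807, 2565 and 6394 times in the WT libraries, against 9688, 8915 and 15823 in those labelled TCKO. These correspond to 219, 256 and 775 CPM against 1106, 1108 and 1775 CPM. The replicate 3 library was the highest of each genotype, 3.27 times the mean of replicates 1 and 2 in WT and 1.60 times in the libraries labelled TCKO, yet the groups did not overlap. The mean rose from 417 ± 311 to 1329.7 ± 386 CPM (SD, n = 3), 3.19-fold, and the log2 fold change was 1.67 ± 0.47 (SE, adjusted p = 0.046). The fold was 4.66 within replicates 1 and 2 and 2.29 within replicate 3. The difference lay close to the threshold. It passed in 8 of 17 alternatives, whose adjusted p ran from 0.00013 to 0.247. DESeq2 gave an adjusted p of 0.0678 and a robust fit gave 0.0981, while a replicate block gave a log2 fold change of 1.88 with an adjusted p of 0.00165. Without WT replicate 3 the log2 fold change was 2.49 (adjusted p = 0.00102). The call was lost without WT replicate 1 (adjusted p = 0.132), WT replicate 2 (0.155), TCKO replicate 1 (0.0907), TCKO replicate 2 (0.0905) or TCKO replicate 3 (log2 fold change 1.41, adjusted p = 0.0801).

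Despite the rise of Ptgs1, Ptgs2 made up most of the cyclo-oxygenase RNA in every library. Per length, Ptgs1 was 3.04%, 2.60% and 1.76% of the sum of both genes in WT, against 7.37%, 7.66% and 5.57% in the libraries labelled TCKO, means of 2.46% ± 0.650 and 6.87% ± 1.13 (SD, n = 3). The share was lowest in replicate 3 of each genotype, where Ptgs2 was highest, and the groups did not overlap. These shares are a description, since both genes had been compared on their own.

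**Figure D2:**
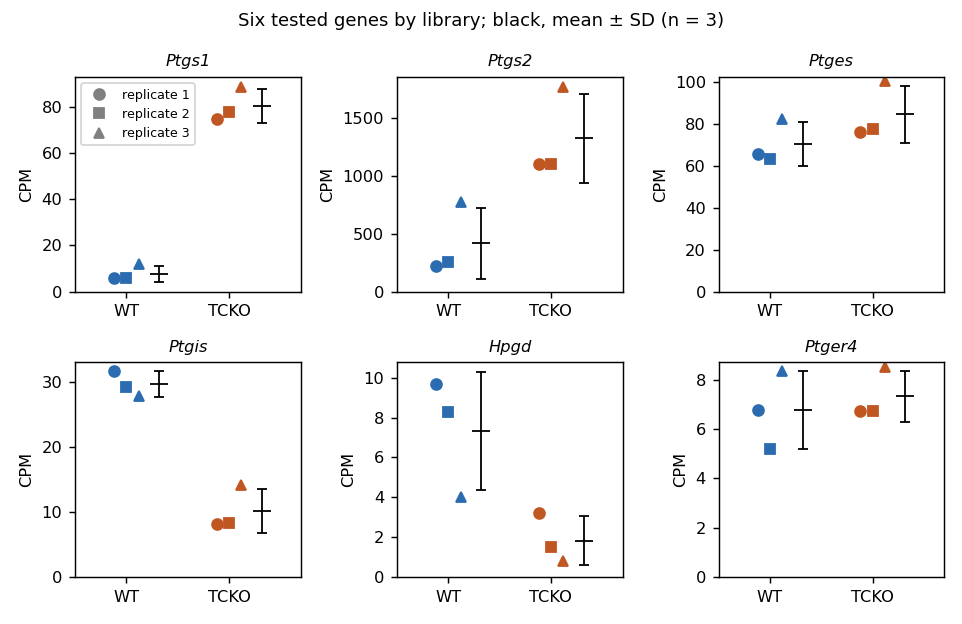
Each panel shows the CPM of a tested gene (linear axis from 0) in the 3 WT libraries (blue) and the 3 libraries labelled TCKO (orange), with the replicate as marker shape and the mean ± SD in black. The genotypes separate in Ptgs1, Ptgs2, Ptgis and Hpgd and overlap in Ptges and Ptger4. Replicate 3 is the highest library of both genotypes in Ptgs2 and the lowest of both in Hpgd.

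Terminal synthases decide which prostaglandin is made from prostaglandin H2. Ptgis, the prostacyclin synthase (ENSMUSG00000017969, chromosome 2, 167191805 to 167240604, minus strand), was counted 263, 293 and 230 times in the WT libraries, against 71, 67 and 126 in those labelled TCKO, or 31.8, 29.2 and 27.9 CPM against 8.10, 8.33 and 14.1 CPM. WT libraries were close together, and TCKO replicate 3 was the highest of its group at a level below each WT library. The mean fell from 29.7 ± 2.01 to 10.2 ± 3.42 CPM (SD, n = 3), 2.90-fold lower, and the log2 fold change was -1.54 ± 0.21 (SE, adjusted p = 0.00275). WT stood 3.72-fold above the libraries labelled TCKO within replicates 1 and 2 and 1.97-fold above within replicate 3. Without TCKO replicate 3 the log2 fold change was -1.85. The difference passed in 16 of 17 alternatives, the exception being the fit with replicates 1 and 2 summed (adjusted p = 0.0704).

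Ptges, the inducible microsomal prostaglandin E synthase (ENSMUSG00000050737, chromosome 2, 30889471 to 30929863, minus strand), was counted 541, 634 and 677 times in the WT libraries, against 666, 621 and 892 in those labelled TCKO. In CPM these were 65.5, 63.3 and 82.1 against 76.0, 77.2 and 100.1. The groups overlapped, since WT replicate 3 lay above replicates 1 and 2 of the other genotype. Means were 70.3 ± 10.3 and 84.4 ± 13.6 CPM (SD, n = 3), and the log2 fold change was 0.27 ± 0.14 (SE, adjusted p = 0.241). With the replicate number as a block the log2 fold change was 0.26 with an adjusted p of 0.0334, and each replicate pair was higher in the library labelled TCKO. With the same block on the summed counts of replicates 1 and 2 the adjusted p was 0.176. Ptges made up 57.3%, 58.6% and 65.8% of the per-length sum of Ptges and Ptgis in WT, against 86.0%, 85.8% and 82.2% in the libraries labelled TCKO. The mean share went from 60.6% ± 4.57 to 84.7% ± 2.12 (SD, n = 3) with no overlap. This share is likewise a description, since both genes had been compared on their own and Ptgis was already lower.

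The other listed synthase, Ptgds, makes prostaglandin D2. This gene (ENSMUSG00000015090, chromosome 2, 25466709 to 25470046) was counted 3, 4 and 0 times in the WT libraries, against 0 in each labelled TCKO, which is at the limit of this depth, and it was not tested.

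Hpgd, the prostaglandin dehydrogenase that starts the breakdown of prostaglandin E2 (ENSMUSG00000031613, chromosome 8, 56294585 to 56321043, plus strand), was counted 80, 83 and 33 times in the WT libraries, against 28, 12 and 7 in those labelled TCKO. These were 9.69, 8.28 and 4.00 CPM against 3.20, 1.49 and 0.785 CPM. Replicate 3 was the lowest library of each genotype, and the lowest WT library stood a little above the highest labelled TCKO. The mean fell from 7.32 ± 2.96 to 1.82 ± 1.24 CPM (SD, n = 3), 3.99-fold lower, and the log2 fold change was -2.00 ± 0.50 (SE, adjusted p = 0.03). WT exceeded the libraries labelled TCKO 3.83-fold within replicates 1 and 2 and 5.09-fold within replicate 3. Of 16 alternatives 12 passed. The call was lost without WT replicate 1 (adjusted p = 0.111), WT replicate 2 (0.105) or TCKO replicate 2 (0.105) and with replicates 1 and 2 summed (0.176). Without TCKO replicate 1 the log2 fold change was -2.69, and without TCKO replicate 3 it was -1.62 (adjusted p = 0.0443).

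Macrophage markers were examined beside Hpgd, and those that passed were lower in the libraries labelled TCKO, as Hpgd was. The summed level of 10 macrophage markers was 718, 732 and 409 CPM in WT, against 519, 551 and 166 CPM in the libraries labelled TCKO, ranges that overlap and that are lowest in replicate 3 of each genotype, as Hpgd was. Most of that sum was Lyz2, which did not pass (log2 fold change -0.52, adjusted p = 0.482). Its levels were 595, 616 and 325 CPM in WT, against 455, 488 and 131 CPM in the libraries labelled TCKO. Adgre1 and Cd14 were highest in replicate 3 in WT, while the other markers were lowest in replicate 3 of each genotype. All 10 markers were tested, and 3 passed as lower and 0 as higher, beside 8.63% and 9.07% of all tested genes. With a replicate block 9 passed as lower, and with that block on summed replicates 1 and 2 there were 4. Background shares for those block fits are not given here. Csf1r, Adgre1 and Itgam had log2 fold changes of -1.21, -1.44 and -1.08 (adjusted p = 0.0253, 0.01 and 0.0279). No macrophage marker was at or below 3 counts in all libraries, and the part of these cells in the level of Hpgd was not tested. Endothelial markers, which could bear on Ptgis because endothelial cells make prostacyclin, summed to 2.49 to 4.24 CPM in WT, against 6.28 to 8.75 CPM in the libraries labelled TCKO. Most of that difference was Esam, the only endothelial marker that passed, at 0.848, 0.200 and 0.970 CPM in WT and 2.63, 2.36 and 5.95 CPM in the libraries labelled TCKO (log2 fold change 2.47, adjusted p = 0.0238). Egfl7 had a log2 fold change of 0.60 (adjusted p = 0.304). Pecam1, Cdh5, Emcn and Tie1 never exceeded 7 counts and were not tested. Markers of mast cells and basophils, cells that use Ptgs1, summed to 1.33 to 2.30 CPM in WT, against 25.8 to 38.1 CPM in the libraries labelled TCKO. In the latter nearly all of that sum was Mcpt8, the only tested gene of this list. Mcpt8 was counted 9, 5 and 14 times in the WT libraries, against 327, 247 and 224 in those labelled TCKO. Its log2 fold change was 4.85 (adjusted p = 0.000127), and it passed in 17 of 17 alternatives. Of the untested markers, Cpa3, Mcpt4, Ms4a2 and Fcer1a had at most 3 counts in any library, Cma1 at most 5 and Kit at most 7. Meningeal markers, from the membrane under the skull, summed to 76.9 to 97.6 CPM against 48.8 to 84.7 CPM, with Slc6a13, Slc22a6 and Slc22a8 at 3 counts or fewer. The 2 members that passed moved in opposite directions. Foxc1, which made up most of the sum, had a log2 fold change of -0.83 (adjusted p = 0.0111), and Crabp2 rose from 2.54, 2.99 and 2.30 CPM to 30.5, 27.1 and 8.75 CPM (log2 fold change 3.06, adjusted p = 0.00475). The 6 chondrocyte markers summed to 6204 to 8139 CPM against 684 to 966 CPM, and 6 of 6 passed as lower, beside 8.63% of all tested genes. Most of that sum was Col2a1, at a mean of 6452 CPM in WT and 738 CPM in the libraries labelled TCKO. The part of these cell types in the listed genes' levels was not tested.

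Among the prostaglandin E2 receptors, Ptger4 carried most of the RNA. EP4 and EP2 raise cyclic AMP, EP3 lowers it and EP1 acts through calcium. Ptger4 (ENSMUSG00000039942, chromosome 15, 5206661 to 5244187, minus strand) was counted 56, 52 and 69 times in the WT libraries, against 59, 54 and 76 in those labelled TCKO, or 6.78, 5.19 and 8.36 CPM against 6.74, 6.71 and 8.53 CPM. The groups overlapped nearly in full. The log2 fold change was 0.12 ± 0.22 (SE, adjusted p = 0.748) and passed in 0 of 17 alternatives. Leaving out libraries moved it between -0.05 and 0.30. Per length, Ptger4 made up 72.6%, 66.6% and 74.4% of the sum of the 4 receptors in WT, against 76.3%, 70.8% and 72.6% in the libraries labelled TCKO.

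The other 3 receptors were at too few counts to test, and a difference was not detectable at this depth. Ptger2 (ENSMUSG00000037759, chromosome 14, 44988195 to 45003820) was counted 8, 11 and 11 times in the WT libraries, against 5, 8 and 12 in those labelled TCKO. Ptger3 (ENSMUSG00000040016, chromosome 3, 157566892 to 157645888) had 1, 3 and 1 against 6, 3 and 1. Ptger1 (ENSMUSG00000019464, chromosome 8, 83666678 to 83672753) had 8, 7 and 7 against 4, 7 and 10. Its counts, like those of every gene here, carry an uncertainty, since the sources used here do not give the strand setting of the counting.

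The wider pathway was read from 7 lists of 70 genes, of which 69 were found and 51 tested. Of these 51, the libraries labelled TCKO had 6 higher and 4 lower than WT, and 41 did not pass. That is a count near the background shares of 9.07% and 8.63%. There were 3 genes that passed with a change over 2-fold, beside 6.35% of all tested genes. The genotypes did not overlap in 19 genes, beside 38.3% of all tested genes. The median log2 fold change was -0.04. With a replicate block 16 passed (9 higher and 7 lower), and with that block on summed replicates 1 and 2 there were 5. The shares of all tested genes that passed under these block fits are not given here, so these counts have no background.

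In the supply of arachidonate, 2 of 6 tested genes were higher and 0 lower, beside 9.07% and 8.63% of all tested genes. The median log2 fold change of the 6 was 0.20. Pla2g4a, the cytosolic phospholipase that feeds the cyclo-oxygenases, stood at 31.8, 36.8 and 55.2 CPM in WT, against 81.7, 81.2 and 88.6 CPM in the libraries labelled TCKO. Every library labelled TCKO exceeded every WT library. Its log2 fold change was 1.02 ± 0.18 (SE, adjusted p = 0.00849), which passed in 16 of 17 alternatives. The calcium-independent phospholipase Pla2g6 rose by 0.57 ± 0.13 on the log2 scale (adjusted p = 0.019), a call lost without WT replicate 2 (adjusted p = 0.0689) or TCKO replicate 1 (0.0693). Mgll and Dagla, which handle arachidonate held in monoacylglycerol and diacylglycerol, had log2 fold changes of -0.04 and 0.23 (adjusted p = 0.783 and 0.293).

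Of 7 tested synthases outside the family, 1 was higher and 1 lower, beside 9.07% and 8.63% of all tested genes. Ptges3, a co-chaperone also known as cytosolic prostaglandin E synthase, rose by 0.46 ± 0.07 on the log2 scale (adjusted p = 0.00491). Prxl2b, a prostaglandin F synthase, had a log2 fold change of -0.76 ± 0.18 (adjusted p = 0.0239), lost without WT replicate 2 (adjusted p = 0.0637), TCKO replicate 1 (0.0912) or TCKO replicate 2 (0.0861). The highly expressed Cbr1 and Ptges2 had log2 fold changes of 0.04 and -0.06 (adjusted p = 0.817 and 0.789). None of the 4 tested genes of breakdown and transport passed (0 higher, 0 lower). Slco2a1, the transporter that carries prostaglandins into cells for breakdown, stood at 7.39, 6.59 and 25.8 CPM in WT, against 24.4, 20.5 and 63.0 CPM in the libraries labelled TCKO. Replicate 3 was the highest of each genotype, as in Ptgs2, and the groups overlapped. Its log2 fold change was 1.46 ± 0.60 (SE, adjusted p = 0.138), with an adjusted p of 0.000495 under a replicate block. It was 2.37 without WT replicate 3 (adjusted p = 0.0241) and 0.78 without TCKO replicate 3 (adjusted p = 0.332). The reductase Ptgr1 had a log2 fold change of -0.01 (adjusted p = 0.961).

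In the list of other prostanoid receptors, 4 genes were tested, 1 of them higher and 1 lower, beside 9.07% and 8.63% of all tested genes. The higher one, Ptgfrn, is not itself a prostanoid receptor. Tbxa2r, the thromboxane receptor, fell from 23.6, 20.3 and 14.4 CPM in WT to 1.83, 2.11 and 3.03 CPM in the libraries labelled TCKO. The groups were far apart. Its log2 fold change was -3.05 ± 0.26 (SE, adjusted p = 0.000406), and it passed in 17 of 17 alternatives. Ptgir, the receptor for the prostacyclin that Ptgis makes, stood at 4.12, 6.49 and 7.39 CPM against 3.65, 3.48 and 3.70 CPM. All 3 WT libraries lay above the others, with a log2 fold change of -0.73 ± 0.25 that did not pass (SE, adjusted p = 0.0849), although it did without WT replicate 1 (adjusted p = 0.0421). Ptgfrn, which encodes a protein that binds next to the prostaglandin F receptor, rose by 0.44 ± 0.12 on the log2 scale (adjusted p = 0.0428). That call was lost without WT replicate 1 (adjusted p = 0.116), WT replicate 2 (0.114), WT replicate 3 (0.0801), TCKO replicate 1 (0.146) or TCKO replicate 2 (0.141). Ptgfr itself had a log2 fold change of 0.58 ± 0.59 (adjusted p = 0.545).

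**Figure D3:**
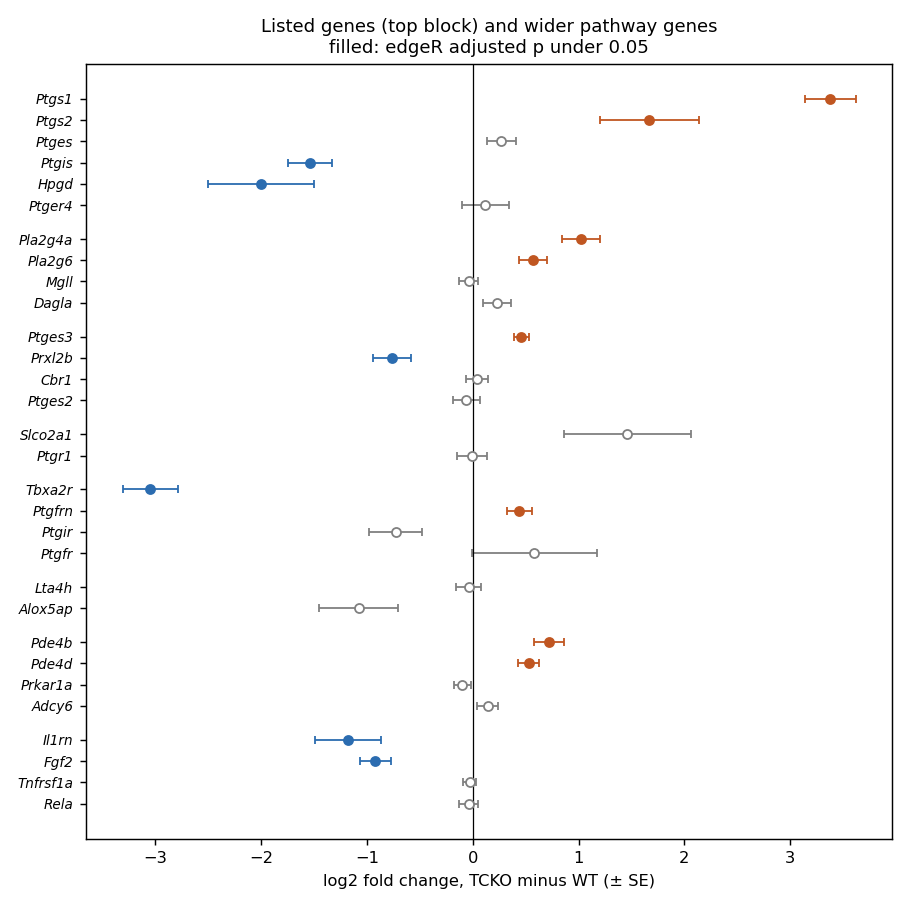
Log2 fold changes (TCKO minus WT, ± SE) are plotted for the 6 tested listed genes in the top block and for the named genes of the 7 wider lists below. Filled markers passed the test, orange as higher and blue as lower. Ptgs1 (3.38) and Tbxa2r (-3.05) lie farthest from 0 on either side.

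Of the lipoxygenase branch, which turns arachidonate into leukotrienes, 3 genes were tested and 0 passed. Their median log2 fold change was -0.92. Alox5ap, the activator of 5-lipoxygenase in leukocytes, stood at -1.08 ± 0.37 on the log2 scale (SE, with an adjusted p of 0.0856, of 0.0236 with a replicate block, of 0.111 with that block on summed replicates 1 and 2, and of 0.0403 without WT replicate 3). Lta4h stood at -0.04 (adjusted p = 0.868). Of the cyclic AMP relay, 18 of 18 genes were tested, with a median of 0.10. Of these, 2 were higher and 0 lower, beside 9.07% and 8.63% of all tested genes. Both that rose encode phosphodiesterases that break down cyclic AMP. Pde4b rose by 0.72 ± 0.14 on the log2 scale (adjusted p = 0.013) and Pde4d by 0.53 ± 0.10 (adjusted p = 0.0116). Pde4b lost its call without WT replicate 1 (adjusted p = 0.0615), WT replicate 2 (0.064) or TCKO replicate 2 (0.0565), and Pde4d without WT replicate 2 (adjusted p = 0.0577), TCKO replicate 1 (0.0572) or TCKO replicate 2 (0.0554). Prkar1a and Adcy6, the most abundant of the others by count, had log2 fold changes of -0.10 and 0.14 (adjusted p = 0.413 and 0.345).

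Of the genes that can induce Ptgs2 and their receptors, 9 of 13 were tested, with a median log2 fold change of -0.08. Of these, 0 were higher and 2 lower, beside 9.07% and 8.63% of all tested genes. The cytokine genes Il1a, Il1b, Tnf and Il6 had too few counts to test. Fgf2, a growth factor that induces Ptgs2 in osteoblasts, fell by 0.92 on the log2 scale (SE 0.15, adjusted p = 0.00542). Il1rn, the antagonist of interleukin-1, had a log2 fold change of -1.18 ± 0.31 (adjusted p = 0.0363), a call lost without WT replicate 1 (adjusted p = 0.129), WT replicate 3 (0.0696), TCKO replicate 1 (0.106), TCKO replicate 2 (0.0524) or TCKO replicate 3 (0.0652). Tnfrsf1a and Rela had log2 fold changes of -0.03 and -0.04 (adjusted p = 0.799 and 0.806).

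Ptgs2 and Pla2g4a both lie on chromosome 1, with 138740 bases (139 kb) between the end of Pla2g4a and the start of Ptgs2. Only Ptgs2os, of the 3 genes that lie wholly between them, held counts. This antisense gene (ENSMUSG00000097028, chromosome 1, 150074873 to 150099963, minus strand) ends 67 bases before Ptgs2 starts, so the Ptgs2 window printed above covers its first bases. It was chosen after its values were seen. Since it is not stated whether counting used the strand, reads from either strand within it cannot be told apart. Ptgs2os was counted 12, 8 and 29 times in the WT libraries, against 58, 50 and 70 in those labelled TCKO, with no overlap in CPM. Replicate 3 was again the highest of each genotype. Its log2 fold change was 1.87 ± 0.44 (SE, adjusted p = 0.0239), which passed in 10 of 16 alternatives with a range of adjusted p from 0.000386 to 0.188. Without WT replicate 3 it was 2.63 (adjusted p = 0.00225), and without TCKO replicate 3 the call also held (adjusted p = 0.0364). It was lost without WT replicate 1 (adjusted p = 0.0984), WT replicate 2 (0.0647), TCKO replicate 1 (0.071) or TCKO replicate 2 (0.0637).

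The pattern of Ptgs2 over the 6 libraries was then set against that of every tested gene, as the root mean square distance between mean-centred log2 CPM values. The nearest genes were Sema4f at 0.066, Lrrc32 at 0.092 and Mogat2 at 0.137 log2 units, beside a median distance of 1.140 over the tested genes. Sema4f, which encodes a semaphorin, was counted 113, 158 and 392 times in the WT libraries, against 591, 532 and 1091 in those labelled TCKO. Lrrc32, whose protein tethers latent TGF-beta to the cell surface, had 426, 487 and 1360 against 1991, 1868 and 3281. Mogat2, for a monoacylglycerol acyltransferase, had 2, 4 and 14 against 23, 18 and 29. All 3 were highest in replicate 3 of each genotype, as Ptgs2 was, which follows from choosing them by their likeness to Ptgs2. The likeness is a description over 6 libraries.

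**Figure D4:**
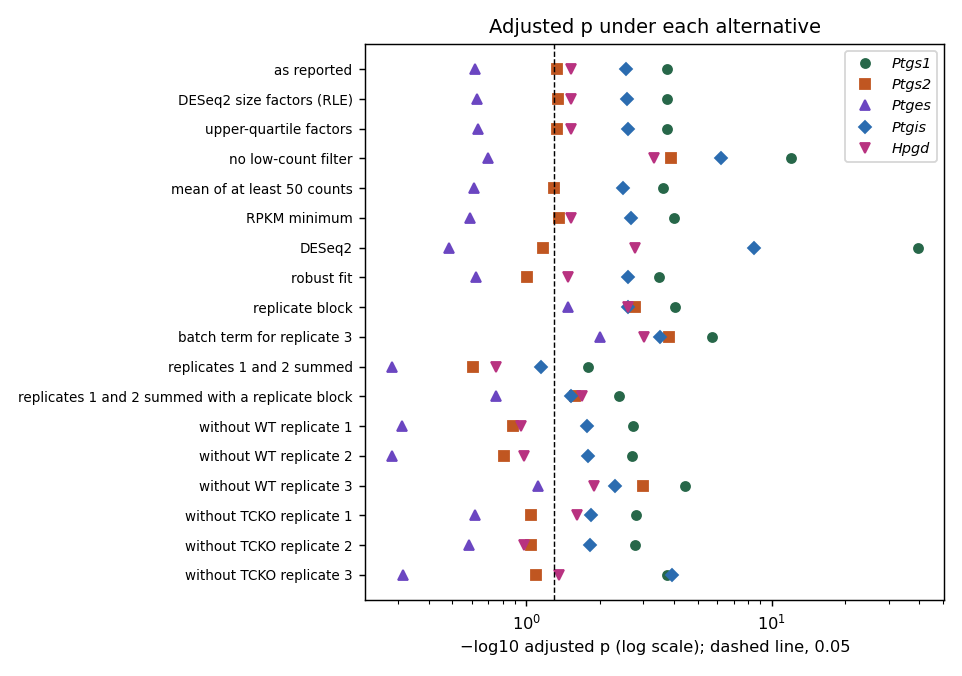
The adjusted p of Ptgs1, Ptgs2, Ptges, Ptgis and Hpgd is plotted as −log10 on a log axis for the reported fit and each of the 17 alternatives, with a dashed line at 0.05. Ptgs1 lies past the line throughout, Ptgis in all but the fit with replicates 1 and 2 summed, and Ptgs2 and Hpgd fall on either side of it.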

How the data were processed

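RNA-seq counts from primary calvarial osteoblasts were compared between 3 WT libraries and 3 libraries labelled TCKO, grouped by sample title. Per the labels and the study's methods, the authors aligned reads to GRCm38 (Ensembl annotation) with STAR 2.7.0e and counted them over exons with featureCounts 2.0.0. The kit was directional, but whether counting used strand, and how shared reads were treated, is not given in the sources used here. The deposited values are raw counts per gene, with exon length in a column of its own. No value column was left unassigned (0 columns) and 0 rows lacked a gene identifier. Symbols were matched by gene identifier for 99.4% of genes. Coordinates are those of the deposited table.

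Counts were filtered with filterByExpr, scaled by TMM and tested with the quasi-likelihood test of edgeR 4.0.16 (R 4.3.3) over all 6 libraries without covariates. The SE of a log2 fold change is its size over the square root of F. P-values were adjusted over 13826 genes. The script was tested on simulated data. The study used DESeq2, and DESeq2 1.42.0 was run as an alternative, beside other scalings, filters (a mean of 50 counts, or an RPKM of 0.24), a robust fit, a replicate block, a batch term for replicate 3, the counts of replicates 1 and 2 summed, and each library left out in turn. Genes of the wider lists were named when they passed or were the 2 most abundant others by count. The members, the lists and the alternatives were chosen with earlier results of these data known.

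Same-numbered libraries deviated together from their group means (r = 0.204, 0.214 and 0.347 across genes, for replicates 1, 2 and 3), and the numbers were taken as pairs by a rule of r over 0.1 in each pair. The crossed pairs of replicates 1 and 2 gave r = 0.225 (WT 2 with TCKO 1) and 0.188 (WT 1 with TCKO 2), so these values set replicate 3 apart and do not tell the pairs 1 and 2 from each other. Replicates 1 and 2 were also close to each other within a genotype. Chi-square per degree of freedom between their counts was 1.69 in WT and 2.04 in TCKO, against 16.5 to 23.3 for pairs with replicate 3, and they were kept as separate libraries. In the fit with their counts summed, each genotype had 2 samples. Promoter windows came from RefSeq, and motifs were searched as exact letters on both strands.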

Additional observations from a re-analysis of the deposited data

How the results depend on the processing

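Over 30 log2 fold changes and 17 alternatives (6 of which leave out a library), 426 of 504 values kept their direction and their side of the threshold, 51 lost the call, 13 gained it and 14 changed sign. All sign changes came with a library left out, in genes that did not pass. The count of listed genes that passed was 4 as reported, 2 with a mean of at least 50 counts (where Hpgd was not tested and Ptgs2 had an adjusted p of 0.0509), 1 with replicates 1 and 2 summed, and 2 to 4 with each library left out in turn (2 without WT replicate 1, WT replicate 2 or TCKO replicate 2). Summing leaves 2 samples per genotype. With a replicate block on the summed counts, 4 listed genes passed. The part of the smaller number of samples in the lower count without a block was not tested. For the wider pathway the count was 10 as reported, 16 with a replicate block, 20 with a batch term for replicate 3, 1 with replicates 1 and 2 summed, 5 with both the sum and a replicate block, and 5 to 16 with a library left out (16 without WT replicate 3, and 5 without WT replicate 2, TCKO replicate 1 or TCKO replicate 2). Shares over all tested genes are given for the reported fit only, so the counts under the alternatives have no background beside them. The replicate block changed the call of Ptges, Slco2a1 and Alox5ap and of no other of the 30 genes. With the block on summed replicates the adjusted p was 0.176, 0.00909 and 0.111 for these 3, so only Slco2a1 passed. The left-out libraries moved the log2 fold change of Ptger4 from -0.05 to 0.30, Mgll from -0.11 to 0.02, Cbr1 from -0.02 to 0.11, Ptges2 from -0.14 to 0.04, Ptgr1 from -0.15 to 0.07, Ptgfr from -0.14 to 1.03, Lta4h from -0.15 to 0.05 and Rela from -0.13 to 0.01. Scaling by library total moved 0 of 20 RPKM levels beyond their spread. Depth limits Ptgds, Ptger1, Ptger2 and Ptger3, which had at most 12 counts in any library.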
